A study of Mus musculus with 4 samples.

Results

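The 171 probe sets described here carry a microRNA name on a mouse gene expression array and had a mean log2 intensity of at least 5 over the 4 arrays of the study. The members were selected on gene symbol in the authors' deposited comparison table and on measured level. Their names are those that start with Mir and a digit or with Mirlet7. In all, 581 probe sets had such a name, 410 of them lay below 5, and the table named 32202 probe sets of any kind. The 171 probe sets hold 166 distinct names. Of these probe sets, 3 are named for host transcripts (Mir143hg once and Mir17hg by 2 probe sets) and 168 for microRNA genes. The members were chosen by their level in these same arrays, so levels are given here as a description, with no test.

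Balb/c mice were treated for 45 days, and total RNA of the colon was measured on GeneChip Mouse Gene 2.0 ST arrays. The control group (arrays 1 and 2) drank plain water, and the maltodextrin group (arrays 3 and 4) drank water with 5% maltodextrin, a chain of glucose units made from starch and added to many processed foods. Both groups were of the same strain and tissue, no transgene or deletion is named, and age and sex are not given in the labels. The arrays therefore number 2 per group, and every difference is maltodextrin minus control on the log2 scale.

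A microRNA gene is transcribed as a long primary transcript, often from the intron of a host gene. Drosha with Dgcr8 cuts out a hairpin in the nucleus, Dicer1 cuts the hairpin to a short duplex in the cytoplasm, and an Argonaute protein keeps a single strand, the mature microRNA. Bases 2 to 8 of the mature strand form the seed, which pairs with target messages and sets the family. Probes of this array are laid out on the hairpin or its gene, so the signal is that of the primary transcript, precursor or host transcript and was not shown to be that of the mature strand.

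The mature strands below belong to the microRNAs on which the results turn, with the seed in capitals, from RefSeq on GRCm38.p6. A mature sequence was found for 135 of the 166 names and a hairpin for 127. Those higher on both maltodextrin arrays come before miR-101c and those lower from there to miR-680, and miR-200a, miR-7b and miR-3064 are shown because results below set them beside the others.
mmu-miR-200b-3p: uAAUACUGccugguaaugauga
mmu-miR-200a-3p: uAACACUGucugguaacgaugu
mmu-miR-7a-5p: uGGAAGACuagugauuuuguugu
mmu-miR-7b-5p: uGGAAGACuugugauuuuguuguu
mmu-miR-192-5p: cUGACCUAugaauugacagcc
mmu-miR-21a-5p: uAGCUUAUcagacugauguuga
mmu-miR-3101-5p: gGUACCAUugacuaaagcuag
mmu-miR-101c: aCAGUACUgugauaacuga
mmu-miR-3109-5p: aAUGGAUGcgaugguucccaugcu
mmu-miR-5123: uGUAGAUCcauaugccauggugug
mmu-miR-680: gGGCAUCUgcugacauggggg
mmu-miR-3064-5p: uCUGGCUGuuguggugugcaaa

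Counted from the 5′ end of miR-200b-3p, miR-200a-3p differs from it by U4C, C9U, U17C and A22U, of which U4C lies in the seed. On the 5p strand both share the seed AUCUUAC. The 5p strands of Mir7-1 and Mir7b share the seed GGAAGAC and differ by A10U, counted from the 5′ end of miR-7a-5p. They also differ in length, 23 bases for miR-7a-5p and 24 for miR-7b-5p. Among all members, 13 seeds were shared by at least 2 names, the most by the 4 miR-181 genes (ACAUUCA).

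The hairpin is nearer to what a probe set on this array reports. The hairpins of 3 members that were higher on the maltodextrin arrays follow, with the mature strands of each in capitals.
Mir200b (chr4:156055681-156055750, minus strand): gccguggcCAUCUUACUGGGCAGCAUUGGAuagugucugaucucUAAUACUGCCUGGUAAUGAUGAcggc
Mir192 (chr19:6264844-6264932, plus strand): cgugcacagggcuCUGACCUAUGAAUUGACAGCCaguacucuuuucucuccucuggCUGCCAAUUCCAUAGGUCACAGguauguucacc
Mir3101 (chr7:27176006-27176093, minus strand): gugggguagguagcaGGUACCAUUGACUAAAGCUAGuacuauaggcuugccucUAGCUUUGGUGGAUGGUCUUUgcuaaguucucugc

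Array medians over all 41345 probe sets lay between 5.20 and 5.35. Control 2 stood apart in markers of pancreatic acinar cells, with a median of 9.11 over 21 probe sets against 4.95, 5.06 and 5.13 on control 1, maltodextrin 3 and maltodextrin 4. Epithelial markers had medians of 11.35 to 11.68 on the 4 arrays and smooth muscle markers of 10.79 to 11.97, so both marker sets were present on every array. Over the members, the Pearson correlation between arrays was 0.855 for the 2 controls and 0.968 for the 2 maltodextrin arrays, against 0.950 and 0.984 over all named probe sets. The arrays of the control group thus lay farther apart than those of the maltodextrin group.

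Member means ran from 5.01 to 12.99 with a median of 6.11, and 79 members lay under 6. Only 23 members had a mean of 8 or more, and 16 of those can match several transcripts, as a column of the comparison table marks them. Among all members 69 (40.4%) can match several transcripts, against 27.3% of the 410 microRNA probe sets under 5 and 13.5% of all named probe sets. Under 3 names, 7 probe sets in all held identical values on every array: Mir692-3, Mir683-1 and Mir467b.

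The highest level was that of Mir5099, a probe set with a single match, at 13.03 and 13.44 on the controls and 12.74 and 12.74 on the maltodextrin arrays. Both probe sets of Mir692-3 read 11.90, 11.83, 12.46 and 12.22 on arrays 1 to 4, the order kept for all sets of 4 values here. Mir449b followed with 12.23, 12.06, 11.91 and 11.89. These 3 names were bright on every array, but the probe sets of Mir692-3 and Mir449b can match several transcripts. Mir692-3 lies within the span of the pseudogene Ftl1-ps1. Mir449b lies within the span of Cdc20b, whose strand was not used and whose probe set had a mean of 4.73. Mir5099 and Mir449b were lower on both maltodextrin arrays and Mir692-3 higher, each without overlap between the groups.

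Mir3064, again with a single match, read 11.30, 11.49, 11.28 and 11.17. It lies within Ddx5 and on its strand, an RNA helicase gene whose product works with Drosha, and the Ddx5 probe set had a mean of 12.40, so the microRNA name and its host were both near the top of the scale. Mir5125 at a mean of 10.46 lies within Srrm2, a splicing factor gene with a mean of 10.79, and Mir1956 at 10.38 lies within Eif4e, the cap-binding translation factor, with a mean of 8.98. Of the 12 brightest probe sets 10 can match several transcripts, among them Mir692-1 at 10.54, Mir680-2 at 9.85, Mir1195 at 9.65, Mir703 at 9.18 and Mir467c at 8.88.

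At the threshold, the nearest members were Mir3473c at 5.01, Mir672 at 5.01 and Mir34b at 5.02. Just outside it lay Mir669a-3 at 4.98, Mir494 at 4.98 and Mir539 at 4.95. A member could pass through a single group, and 5 members had a control mean under 5 while 11 had a maltodextrin mean under 5, which left 155 with both group means at 5 or more. Mir3101 passed only through the maltodextrin group, and Mir874, Mir758 and Mir1930, lower at the criterion used below, passed only through the control group, so each of these 4 had to differ.

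Several microRNAs that are known as abundant in colon were near the array's lower range. Of the 78 probe sets on 7 lists of microRNAs by tissue or family, 18 were members and 60 lay below 5, with a median mean of 3.34. Those below included Mir200c at 3.91 and Mir141 at 2.88, the epithelial cluster related to miR-200b, Mir215 at 3.47, a relative of miR-192, and Mirlet7g at 3.91. Their levels say nothing of the mature strands.

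The members that did belong to known tissue groups were few. Epithelial microRNAs gave 7 members of 16 probe sets, blood cell microRNAs 5 of 14, and smooth muscle and stromal microRNAs 3 of 15. Let-7, pancreatic, Hox cluster and miR-17 to miR-92 microRNAs gave 1 each of 12, 5, 5 and 12. The epithelial list as used here also holds Mir7-1, Mir7b and Mir375. Mir375 stands on the pancreatic list as well, so it is counted under both. Brightest of the listed members was Mir196a-1, from the Hoxb cluster, at 8.14, 8.93, 7.86 and 7.87. Its difference was -0.67 (SE 0.31, unadjusted p = 0.0855 by limma). Control 2 was its highest array and the groups did not overlap, but the difference was -1.06 without control 1 and -0.28 without control 2.

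Mir143 and Mir145a, which mark smooth muscle and lie together on chromosome 18, read 7.25, 6.44, 7.26 and 6.87, and 5.99, 6.34, 7.09 and 6.42. Their differences were 0.22 (SE 0.34) and 0.59 (SE 0.30), and the host transcript Mir143hg gave -0.09 (SE 0.33). With an array left out the differences ran from -0.18 to 0.63 for Mir143 and from 0.25 to 0.93 for Mir145a. None of these 3 had an unadjusted p under 0.05 by limma. The smooth muscle marker genes had a median difference of -0.43, with 10 of 10 below 0 and none at the nominal criterion defined below.

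Among the epithelial members, Mir194-1 had a mean of 6.58 and a difference of -0.24 (SE 0.23), and Mir200a 5.92 and 0.02 (SE 0.22). Mir375, known from enteroendocrine and islet cells, had a mean of 6.25 and a difference of 0.31 (SE 0.26). Mirlet7a-1, of the let-7 family, had a mean of 6.62 and a difference of 0.02 (SE 0.20), and Mir142, of blood cells, 5.10 and 0.02 (SE 0.20). The smallest unadjusted p of these 5 by limma was 0.291, for Mir375.

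The comparison of maltodextrin with control asked whether the food additive alters the signal of microRNA genes in colon. By limma, adjusted over the 32202 named probe sets, 0 members passed an adjusted p of 0.05 and the smallest adjusted p of a member was 0.210, for Mir1949. At an unadjusted p under 0.05 limma gave 28 members and the methods' t-test, the equal-variance test whose p-values differ from the deposited ones by at most 0.00064, gave 12, with 0 of 32202 (0.0%) named probe sets past the adjusted threshold by either. All counts below therefore use a nominal criterion, 1.5-fold or more in either direction together with p under 0.05 before adjustment by limma, and support no call.

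At that criterion 8 members were higher on maltodextrin, 4.68% of them, where 8.51% of all named probe sets and 14.7% of those with a mean of at least 5 were. In the other direction 18 members were lower, 10.5%, where the same shares were 3.56% and 3.44%. Their groups did not overlap in 23 members that were higher (13.5%, against 25.6% of all named probe sets and 39.9% of those at 5 or more) and 55 that were lower (32.2%, against 24.7% and 16.2%). In all, 111 members (64.9%) had a difference below 0, against 54.0% of all named probe sets and 37.7% of those at 5 or more. The median difference of the members was -0.19, that of all named probe sets -0.04 and that of named probe sets at 5 or more 0.14. In whole tissue, fewer cells of a type and less RNA per cell cannot be told apart.

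The counts moved with the array. Control 1 was the highest array for 80 members (46.8%, against 33.0% of all named probe sets and 18.0% of those at 5 or more), control 2 for 37, maltodextrin 3 for 30 and maltodextrin 4 for 24. The medians of the members were 6.34, 6.09, 6.08 and 6.11, so control 1 alone stood above the other 3. Of the 18 lower members 14 were highest on control 1 and 4 on control 2. Their groups did not overlap, so each had to be highest on a control. Leaving out control 1 gave a median difference of -0.07, with 15 members higher and 30 lower at the criterion, and leaving out control 2 gave -0.27, with 7 and 43. Without maltodextrin 3 the counts were 2 and 5, and without maltodextrin 4 they were 3 and 8.

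**Figure D1:**
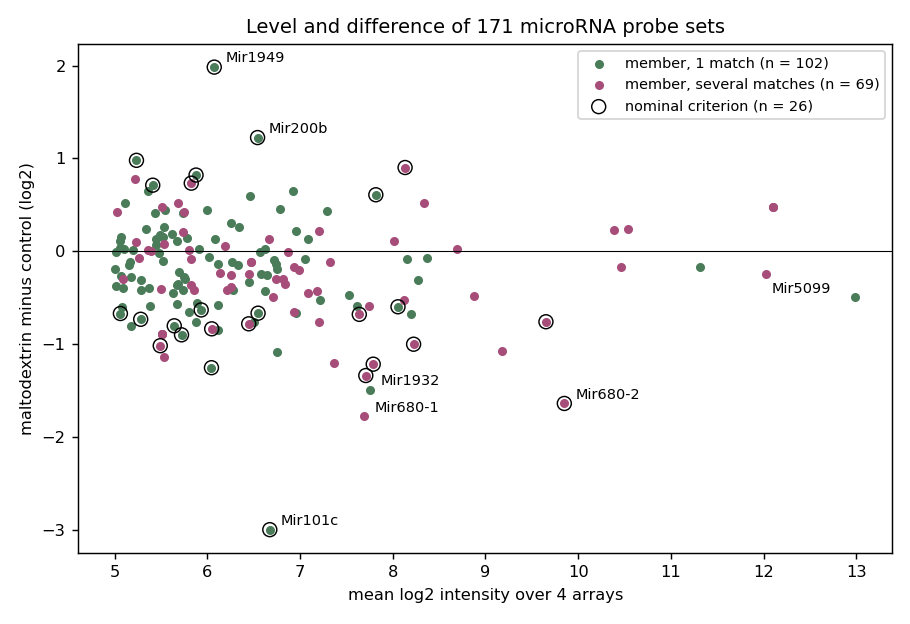
Difference between maltodextrin and control (log2, vertical axis) against the mean log2 intensity over 4 arrays (horizontal axis) for the 171 members, green with a single match and purple with several, with the 26 at the nominal criterion circled. Mir101c at -3.00 and Mir1949 at 1.98 lie farthest from 0, and most bright members can match several transcripts.

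Other short RNAs also had medians below 0, by larger values. C/D box small nucleolar RNAs had a median difference of -0.83 over 103 probe sets, H/ACA box RNAs -1.57 over 36, small Cajal body RNAs -1.31 over 10 and mitochondrial tRNAs -1.07 over 18. Unlike the members, the C/D box RNAs were highest on control 2 in 63 probe sets. The 410 microRNA probe sets under 5 had a median difference of -0.10, and the named probe sets that can match several transcripts had -0.26, with 74.5% below 0. The part of these in the members' values was not tested.

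**Figure D2:**
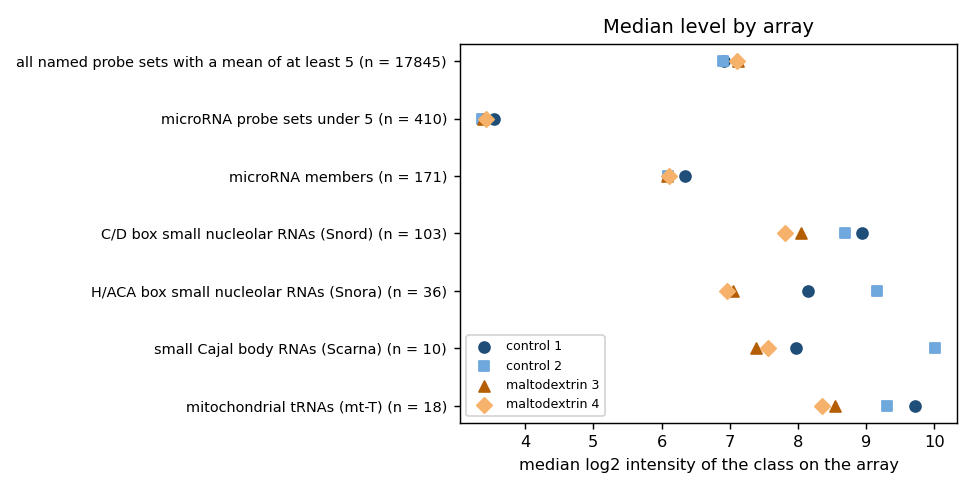
Median log2 intensity of each RNA class on each array (horizontal axis), with 1 point per array. The members and the microRNA probe sets under 5 differ little between arrays, while the small nucleolar and Cajal body RNAs and mitochondrial tRNAs are higher on both controls.

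Mir1949 had the largest difference among the higher members, from 4.89 and 5.28 on the controls to 7.12 and 7.02 on maltodextrin, a difference of 1.98 (SE 0.21, limma adjusted p = 0.210). Both maltodextrin arrays lay above both controls, and the difference ranged from 1.79 to 2.18 with any array left out. Mir1949 lies on chromosome 18 within the span of Snhg4, a noncoding host of small nucleolar RNAs whose strand was not used, and whose own difference was 0.25 (SE 0.26).

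Mir200b, one of the microRNAs that hold the epithelial state by acting on Zeb1 and Zeb2, read 5.77, 6.09, 7.57 and 6.74, a difference of 1.23 (SE 0.34, limma adjusted p = 0.281). The maltodextrin arrays lay above both controls but 0.83 apart, and the difference ran from 0.81 without maltodextrin 3 to 1.64 without maltodextrin 4. Mir200a, whose hairpin starts 696 bases from that of Mir200b on the same strand, read 5.77, 6.04, 5.76 and 6.09, and its groups overlapped. The 2 were not tested against each other. Gm13648, a noncoding RNA on the strand of both, was higher by 0.57 (SE 0.20).

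Mir192, an epithelial microRNA of gut and kidney, read 5.21, 5.73, 6.45 and 6.13, a difference of 0.82 (SE 0.26, limma adjusted p = 0.306). With an array left out the difference ran from 0.56 to 1.08. Mir194-2, another epithelial microRNA, lay just under the floor at 4.89 and read 4.73, 5.54, 4.58 and 4.71. Its difference of -0.49 (SE 0.32) was opposite in sign to that of Mir192. Mir192 and Mir194-2 were not tested against each other. Mir21a, a microRNA that inflammation is known to raise in many tissues, read 7.66, 7.37, 8.25 and 7.99. Its difference was 0.61 (SE 0.21, limma adjusted p = 0.319), and 0.46 to 0.75 with an array left out. Macrophage and mast cell markers had a median difference of 1.48, with 11 of 12 above 0. Plasma cell markers had a median difference of 1.33 over 7 probe sets, B cell markers -0.94 with 8 of 8 below 0, and adipocyte markers -0.89 with 6 of 6 below 0 and all 6 highest on control 2. Endothelial and epithelial markers gave 0.06 and -0.04. The part of these cell types in the members' values was not tested.

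Mir7-1, best known from neurons and endocrine cells, read 5.15, 4.96, 5.91 and 5.63, a difference of 0.71 (SE 0.20), and it lies within Hnrnpk, an RNA-binding protein gene, with 0.42 (SE 0.25). Mir7b, with the same seed, gave -0.26 (SE 0.26) at a mean of 5.06. Mir3101 read 4.73, 4.76, 5.70 and 5.75, a difference of 0.98 (SE 0.17, adjusted p = 0.232), and 0.95 to 1.01 when any array was left out. Mir3101 passed the floor only through the maltodextrin group, so it had to differ. Its host Rab4b, an endosomal small GTPase gene, was higher by 0.63 (SE 0.23). Mir1191 starts 29443 bases past the end of Mir3101 and read 8.02, 7.34, 8.74 and 8.43, a difference of 0.90 (SE 0.30; 0.56 without control 2), and its host BC024978 was higher by 1.11 (SE 0.40). Mir1192 within Klf9, a Krüppel-like factor gene, was higher by 0.73 (SE 0.23), and can match several transcripts, as can Mir1191.

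Mir101c had the largest difference of all members, from 8.86 and 7.49 on the controls to 5.03 and 5.32 on maltodextrin, a difference of -3.00 (SE 0.49, limma adjusted p = 0.232). Its probe set is marked as having a single match, and the annotated position of Mir101c is chr9:3038669-3038743 on the minus strand. The controls were 1.38 apart, yet the lower control lay above both maltodextrin arrays, and the difference stayed between -3.69 and -2.31 with any array left out. Mir680-2 read 11.11, 10.23, 9.18 and 8.89, a difference of -1.64 (SE 0.35, adjusted p = 0.250). Of the other genes with its mature strand, Mir680-1 read 9.73, 7.42, 6.97 and 6.63 (difference -1.78, SE 0.79) and Mir680-3 6.06, 4.64, 5.42 and 5.31. All 3 can match several transcripts.

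Mir3109 read 6.46, 6.89, 5.30 and 5.53, a difference of -1.25 (SE 0.23, adjusted p = 0.238), while its host Anxa2, a membrane-binding annexin gene, gave -0.21 (SE 0.17). Mir5123 read 8.77, 8.03, 7.04 and 7.32, a difference of -1.22 (SE 0.31), and its host B4galt1, a galactosyltransferase gene, was lower as well by -1.02 (SE 0.22). Mir874 read 5.98, 6.02, 4.97 and 5.00, a difference of -1.02 (SE 0.17, adjusted p = 0.232), although it passed the floor only through the control group. Klhl3, its host and a ubiquitin ligase adaptor gene, gave -0.36 (SE 0.19). In each of these 3 both maltodextrin arrays lay below both controls. The probe sets of Mir5123 and Mir874 can match several transcripts.

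Further lower members were Mir467e (-1.34, SE 0.38), Mir1946a (-1.0, SE 0.21), Mir28b (-0.90, SE 0.23), Mir188 (-0.84, SE 0.31), Mir665 (-0.80, SE 0.23), Mir378b (-0.78, SE 0.25) and Mir1195 (-0.76, SE 0.18). The remaining 6, Mir758, Mir466j, Mir1930, Mir345, Mir346 and Mir3058, were lower by 0.60 to 0.73. Of the 18 lower members 9 can match several transcripts, and the 18 adjusted p-values ran from 0.232 to 0.338. Leaving out control 1 gave -0.83 for Mir467e and -0.39 for Mir466j, and leaving out maltodextrin 3 gave -0.45 for Mir188. Mir188 lies within Clcn5, whose difference was 0.06.

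**Figure D3:**
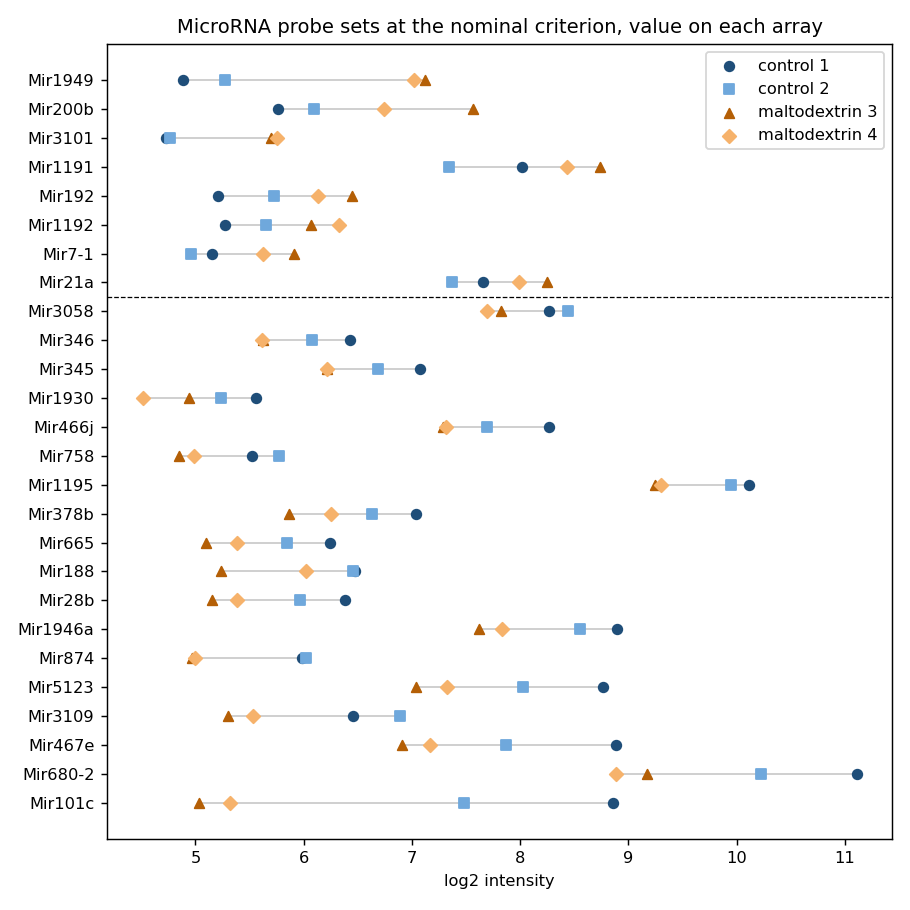
Value of each member at the nominal criterion on each of the 4 arrays (log2 intensity, horizontal axis), with members ordered by difference and the 8 higher members above the dashed line. In all 26 both maltodextrin arrays lie on the same side of both controls.

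In none of the 26 did the groups overlap, so leaving out an array could not reverse a difference. A difference could still fall under the 1.5-fold of the criterion. Examples were Mir21a at 0.46 without control 2, Mir192 at 0.56 without control 1 and Mir188 at -0.45 without maltodextrin 3. Of the 26, Mir3101, Mir874, Mir758 and Mir1930 reached the floor of 5 through a single group. By the authors' deposited table, 2 members were higher and 6 lower at a fold of 1.5 with p under 0.05, and the smallest step-up p-value of a member was 0.318.

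Some members differed more between the controls than between groups. Mir1932 read 6.09, 10.92, 7.77 and 6.24, Mir505 read 10.02, 6.80, 7.85 and 8.82, and Mir703 read 8.28, 11.15, 8.74 and 8.54. These 3 had the widest gaps between controls among the members. The median gap was 0.43 between the controls and 0.23 between the maltodextrin arrays, and a gap over 1 was found for 32 members among the controls and 3 among the maltodextrin arrays.

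Members that lie together in the genome were read as clusters, chained where neighbouring hairpins were within 10 kilobases. The largest was the cluster in Sfmbt2 on chromosome 2, a rodent cluster of repeated miR-466, miR-467 and miR-669 hairpins, with 11 members of 67 probe sets. Their median difference was -0.42 and 8 of the 11 were highest on control 1. The 5 members of the miR-467 family, of its 17 probe sets on the array, were below 0, from -1.34 to -0.48, and 3 of them were identical. Mir669o was above 0 by 0.77, and each of these 6 can match several transcripts.

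The imprinted Dlk1-Dio3 region on chromosome 12 held 7 members of 34 probe sets in its largest piece, with a median of 0.14, and 5 of 11 in another, with a median of -0.23. Mir23a and Mir27a, cut from 1 primary transcript, gave -0.59 (SE 0.43) and -0.42 (SE 0.61), and Mir181d and Mir181c -0.30 (SE 0.43) and -0.19 (SE 0.26), in each case within the spread of the arrays.

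**Figure D4:**
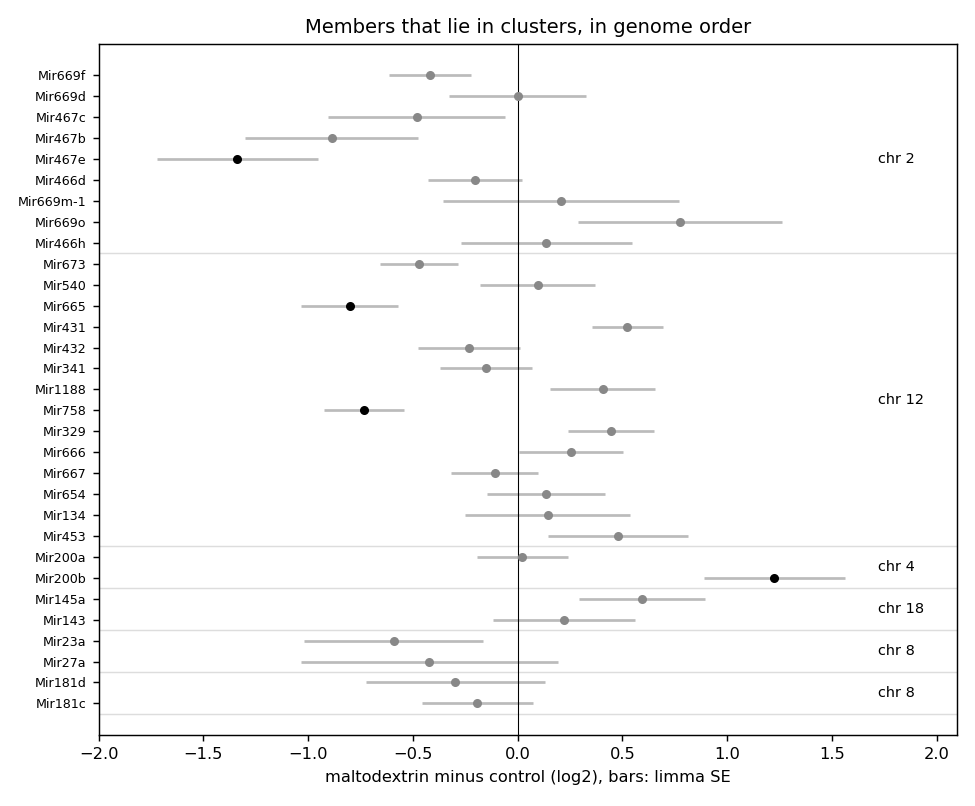
Difference of clustered members (log2, horizontal axis) with the limma SE as bars, in genome order with the chromosome at the right and members at the nominal criterion in black. Mir467e, Mir665, Mir758 and Mir200b are the members in black.

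The microRNA genes lie largely within other genes. Of the 163 member names with a position, 119 lie within the span of another gene, 71 of them on its strand, 12 on the opposite strand only and 36 in genes whose strand was not used. For 64 members a host on the same strand had a probe set, 61 host genes in all, and the sign of the member and host differences was the same in 40. In 21 pairs the host was above 0 and the member below, and in 3 the reverse. Over the pairs, the members' median was -0.17 and the hosts' 0.16, and the differences had a Pearson r of 0.34 and Spearman rho of 0.28 over 64 pairs that share arrays.

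The nominal criterion was met by 8 hosts that were higher (13.1% of 61) and 3 that were lower (4.92%), near the 14.7% and 3.44% of all named probe sets at 5 or more. Mir339 (-0.85; 7.33, 5.74, 5.55 and 5.82, highest on control 1) lies within 3110082I17Rik, which was higher by 1.02, and Mir1943 (-0.49) within Tmem184b, higher by 0.83. Mir139 (0.15) lies within Pde2a, a phosphodiesterase gene that was higher by 1.30. These 3 hosts and members were chosen after their values were seen.

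**Figure D5:**
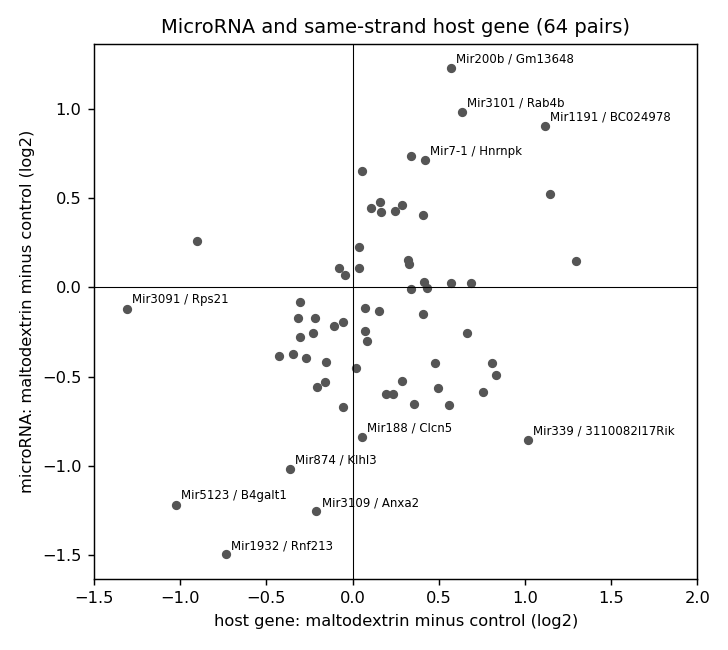
Difference of each member (log2, vertical axis) against that of its same-strand host gene (log2, horizontal axis), 64 pairs. Points in the lower right are the 21 pairs with the host above 0 and the member below.

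Members had hairpins richer in G and C. The median GC content was 54.1% over 127 names and 46.3% over 311 names of microRNA probe sets under 5, and mean level and GC content had a Pearson r of 0.40 and Spearman rho of 0.47 over 438 names, which share arrays and base composition. The difference between groups had a Pearson r of -0.08 with GC content over the 127 members.

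Of the genes that make and use microRNAs, 31 were measured, with a median difference of 0.14. Tsnax and Tsn, the subunits of translin with trax, were higher by 0.89 (SE 0.21) and 0.59 (SE 0.19), and Ago4, an Argonaute gene, by 0.66 (SE 0.19). These 3 met the nominal criterion, 9.68% of the 31 against 8.51% of all named probe sets and 14.7% of those at 5 or more, and 0 were lower at it, so the share was near the background. Pan2 was higher by 0.73 (SE 0.29), more than Ago4 or Tsn, but its unadjusted p by limma was 0.0565. Drosha gave 0.22 (SE 0.19), Dgcr8 0.13 (SE 0.19), Xpo5, the exporter of hairpins, 0.35 (SE 0.18), Dicer1 0.26 (SE 0.20) and Ago2 -0.02 (SE 0.21). The lowest values were those of Zcchc6 and Zcchc11, related uridyl transferase genes, at -0.44 (SE 0.18) and -0.34 (SE 0.18), then Ddx5 at -0.32 (SE 0.25) and Adar, an RNA-editing enzyme gene, at -0.32 (SE 0.18).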

How the data were processed

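The deposited value table holds log2 intensities, and the authors' comparison table holds a ratio, fold and p-value for each probe set, per the file headers. The submitters' processing notes name Partek 6.6. How the authors corrected background, normalized and summarized probes is not given in the sources used here. Both members and gene lists were chosen with earlier results of these data known. Maltodextrin was compared with control in limma 3.58.1 (lmFit and eBayes, R 4.3.3) over all 32202 named probe sets, two-sided, Benjamini-Hochberg adjusted, with 2 residual and 2.62 prior degrees of freedom. Groups came from the labels, which do not state that the arrays of a group are separate mice, so the p-values reflect only how far these samples spread, and that spread may be technical. For 2 arrays a group the smallest exact permutation p is 0.333.

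Named members were the 12 brightest, the 12 largest differences each way at the nominal criterion with groups apart, members on a microRNA list, their same-strand hosts, those nearest the floor and up to 4 genes each way that make or use microRNAs. Positions and sequences came from RefSeq tables of GRCm38.p6, without strand in the gene table, so a host's strand came from its promoter entry. Shared seeds are bases 2 to 8. The fit was tested on simulated data. Alternatives were other floors (4 and 6), a mean of 5 in each group, renormalization, other fits, a fold of 2, the deposited p-values, single-match probe sets and each array left out. Sequences from chromosome 18 are not printed here. No value column lacked a sample.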

Additional observations from a re-analysis of the deposited data

How the results depend on the processing

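No paired analysis was possible because the labels number the arrays through both groups, so the groups share no number. The 26 members at the nominal criterion could not change direction with an array left out, since their groups did not overlap. The median difference stayed below 0 under every setting run. Of 48 named probe sets, 13 had a difference on both sides of 0 over the settings, none of them at the nominal criterion. The widest of these ranges were -2.50 to 0.36 for Mir703, -0.78 to 0.44 for Mir5125, -1.07 to 0.11 for Mir467c, -0.84 to 0.24 for Mir181d and -0.18 to 0.63 for Mir143, and Mirlet7a-1 went from 0.02 to -0.08 on renormalization. The 8 higher members became 4 at a floor of 6, 2 by the methods' t-test, 2 by the authors' deposited values and 2 at a fold of at least 2. The 18 lower members became 28 at a floor of 4, 6 by the methods' t-test, 6 by the deposited values, 7 at a fold of at least 2 and 9 among probe sets with a single match. With each array left out in turn the higher members numbered 2 to 15, the lower members 5 to 43, and the median difference ran from -0.27 to -0.07. The adjusted count over all named probe sets ran from 0 to 905, with 905 without control 1 and 671 without control 2, where 5 and 6 members passed, and 0 without either maltodextrin array. These fits take a lone array to vary like the other group. The causes were not tested, apart from the fewer probe sets a higher floor or single match leaves. The median difference stayed between -0.27 and -0.13 under the other settings. Precision is limited by the number of arrays, and a member near the floor has little signal over background.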
